A study of Mus musculus with 4 samples.

Results

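The cytosolic ribosomal protein genes encode the protein parts of the ribosome outside mitochondria. They were taken by name: gene names that begin with Rpl (large subunit) or Rps (small subunit) and a digit, together with Rplp0, Rplp1, Rplp2 and Rpsa, in both joint expression tables of the study. Names of S6 kinases and names with the pseudogene ending -ps were left out. This gave 84 genes, 50 of the large and 34 of the small subunit, of 18191 gene names found in either table. A further 3 names that fit the pattern were only in the table of the knockout pair (Rps3a2, Rps3a3 and Rps4l) and 2 only in that of the CD93 pair (Rpl36a and Rpl3l). The 84 names include 76 core ribosomal proteins, 6 near copies of them (Rpl22l1, Rpl7l1, Rps27l, Rpl36al, Rpl39l and Rps27rt), the retrocopy Rpl37rt and Rps19bp1, which matches by name but encodes a binding partner of RPS19 and no subunit. In GENCODE M21, a mouse gene annotation on build mm10, 83 of the 84 are protein-coding and Rpl37rt is a transcribed pseudogene.

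The cells were ILC3s (group 3 innate lymphoid cells) from the small intestine of mice, lymphocytes without rearranged antigen receptors that release IL-22 and IL-17, and their RNA was sequenced. Cells were live and CD90.2-high, with low CD45 and without lineage markers such as CD3. There were 4 libraries, with 1 library per group: wild-type mice (WT), mice deficient in IL-17D (KO), and CD93-positive (CD93+) and CD93-negative (CD93-) ILC3s sorted from wild-type mice, all at steady state. The labels give, for every library, 12 h of culture of the cell suspension without stimulation before the CD93 sort, and do not say whether the WT and KO cells were cultured. Whether IL-17D was lost in all cells or in some, the age of the mice and any pooling of animals are not stated in the labels. The level of the gene for IL-17D was not analysed here, so the KO label was not checked on it. Cd93 had an FPKM (fragments per kilobase, scaled to library size) of 155.0 in the CD93+ and 79.9 in the CD93- library. No group has replicates, so no difference below has a test, and each is a difference between libraries.

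A ribosome joins a small subunit, which holds the mRNA and decodes it, to a large subunit, which makes the peptide bond and lets the new chain out through a tunnel. Cells make the proteins of both subunits in matched amounts. Most of these mRNAs begin with a C followed by a run of C and T (a terminal oligopyrimidine, or TOP, tract), through which the kinase mTORC1 sets their translation, so a level of mRNA is not a level of protein made. Ribosomal protein mRNAs are also the source of many retrocopies, intronless copies of a spliced mRNA put back into the genome, and reads of a gene and of a near-identical copy are hard to assign to one or the other.

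One pair of near-identical rows carried much of the members' summed FPKM in the knockout pair, so their sequences are shown. Rps27 (chr3:90212522-90213651, minus strand, mm10) encodes a zinc-binding protein of the small subunit and has introns. Rps27rt (chr9:114982366-114982739, minus strand) is its retrotransposed copy, and Rps27l (chr9:66946086-66949516, plus strand) is an older duplicate known as a target of p53. The first 120 of the 255 coding bases in the GENCODE M21 transcripts are given 5′ to 3′, with capitals for bases that differ from Rps27.
Rps27: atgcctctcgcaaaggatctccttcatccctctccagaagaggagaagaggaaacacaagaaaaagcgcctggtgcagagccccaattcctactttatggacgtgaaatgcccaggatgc
Rps27rt: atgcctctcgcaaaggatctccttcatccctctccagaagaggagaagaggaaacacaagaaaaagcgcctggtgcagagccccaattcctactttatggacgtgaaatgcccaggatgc
Rps27l: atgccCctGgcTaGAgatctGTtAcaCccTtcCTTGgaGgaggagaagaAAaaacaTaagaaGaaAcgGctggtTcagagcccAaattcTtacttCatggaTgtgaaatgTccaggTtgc
Rps27rt had 0 differences from Rps27 over all 255 coding bases. Rps27l had 61 differences, an identity of 76.1%.

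A pyrimidine run at the start was more frequent among ribosomal protein genes than among all genes, though most of their windows lacked the longer form. RefSeq promoter windows (250 bases before to 50 after a gene's start, GRCm38.p6) were found for 64 of the 84 genes, 75 windows in all. A C at the start followed by 4 bases that are each C or T was in 18.7% of these windows and in 2.51% of all 32851 windows of the same length. A run of at least 8 C or T bases that opens with C, within 10 bases before to 20 after the start, was in 32.0% of them, against 8.68% of all windows. The motif CCGGAAG, searched on both strands as a form of the ETS factor site, was in 36.0% of the windows against 8.86%, and TATAAA in 8.0% against 13.6%. These windows, over the same 10 bases before to 20 after the annotated start, show the run, in capitals, for genes whose values are described below.
Rps6 (chr4:86857348-86857377, minus strand): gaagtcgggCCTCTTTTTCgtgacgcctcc
Rps18 (chr17:33955646-33955675, minus strand): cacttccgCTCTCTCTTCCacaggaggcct
Rpl35 (chr2:39005112-39005141, minus strand): ccgCCCTTTCCTCTTTCTCTCgaaccaggc
Rpl38 (chr11:114668570-114668599, plus strand): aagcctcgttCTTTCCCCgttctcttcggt
Rps21 (chr2:180257369-180257398, plus strand): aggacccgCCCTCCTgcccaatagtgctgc

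The totals behind the FPKM scaling, recovered from the values, were 26087274 reads for WT, 27002581 for KO, 11712846 for CD93+ and 11790580 for CD93-. Ribosomal protein genes made up 0.840% of the summed FPKM in the WT and 0.619% in the KO library, and 3.88% in the CD93+ and 4.31% in the CD93- library. The tables of the 2 pairs list different sets of genes (15242 and 12546 rows), so these shares and all levels are compared within a pair. Levels are in FPKM, which is per length of gene. Differences are log2((FPKM + 1)/(FPKM + 1)), KO over WT or CD93+ over CD93-, for genes that reach 1 FPKM in 1 or both libraries, called measured. Fold values are ratios of FPKM, and their 95% intervals (exact, Clopper-Pearson, from recovered reads) cover counting error only.

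Most ribosomal protein genes had a lower level in the KO than in the WT library. Of 81 measured members, 65 (80.2%) were lower and 16 higher in KO, against 49.5% lower of all 12376 measured genes. Their median difference was -0.54 (quartiles -0.80 and -0.09), beside 0.01 for all genes. The summed FPKM of the 84 rows was 4829 in WT and 3160.1 in KO, 1.53-fold apart. In bulk RNA, fewer cells of a type and less RNA per cell cannot be told apart. At the 2-fold limit, 9 members (11.1%) were lower, where 12.7% of all measured genes were, and 3 (3.70%) were higher, where 16.6% were. The share past 2-fold lower is thus near that of the whole table, and it is the median and the low number of higher members that stand apart. With both libraries set to a common sum, the median of all genes moved to 0.17 and that of the members to -0.36, with 5 members at least 2-fold lower and 4 higher. Of all 13661 genes measured at that scaling, 1878 were at least 2-fold lower and 2962 higher. Markers of other cells also differed between these libraries. The summed FPKM of 7 exocrine pancreas genes was 1344 in KO and 0.274 in WT (5 of the 7 at 0 in WT), that of 6 epithelial genes 1064 and 292, that of 7 T cell genes 267 and 134, and that of 9 ILC3 genes 12799 and 17125, of which Il22 alone held 11771 and 16102. Their part in the result was not tested.

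**Figure D1:**
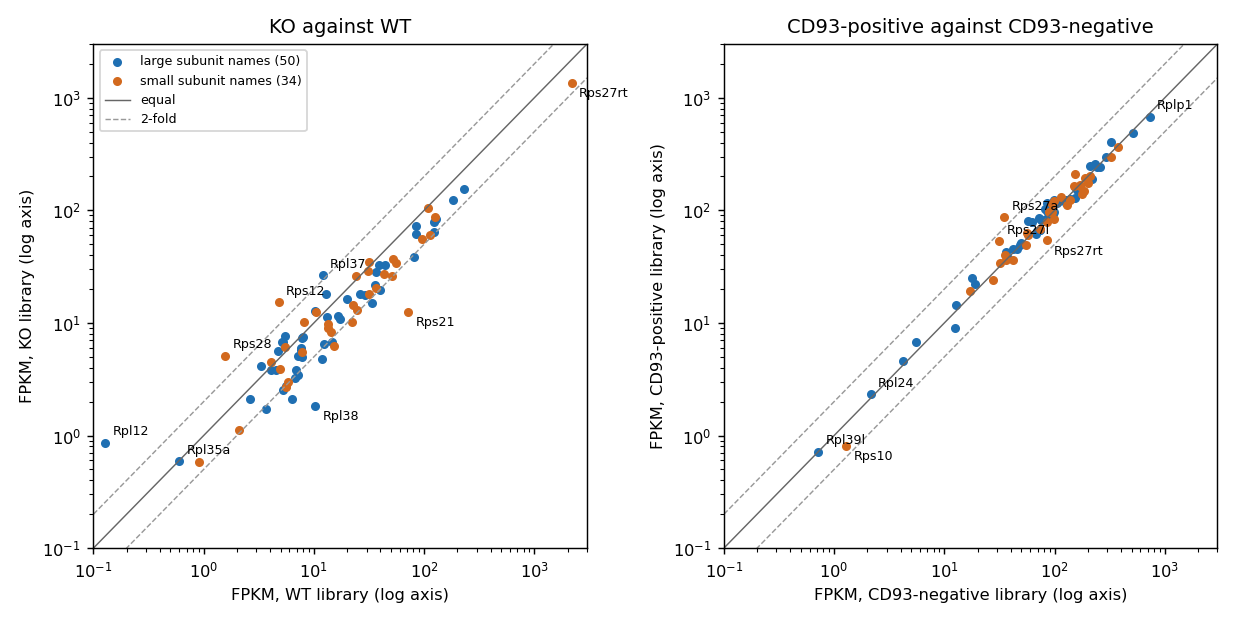
FPKM of the 84 ribosomal protein genes on log axes, KO against WT (left) and CD93-positive against CD93-negative (right), 1 point per gene, blue for the large and orange for the small subunit, with lines of equality and of a 2-fold ratio. Most points of the left panel lie below equality, with Rps27rt at 1354 in KO and 2179 in WT, while those of the right panel lie along it, apart from Rps27a.

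Rps21, a small subunit protein that helps mature the small subunit, had the lowest difference. Its gene (ENSMUSG00000039001.12, chr2:180257377-180258445) had 71.8 FPKM in WT and 12.5 in KO, from 1518 and 274 reads, 5.73-fold lower in KO (5.04 to 6.55). Rpl38 encodes a large subunit protein known for its part in the translation of Hox mRNAs. It had 10.3 FPKM in WT and 1.84 in KO, from only 145 and 27 reads (5.56-fold lower, 3.67 to 8.72). Rpl39l, a copy of the exit tunnel gene Rpl39 with a known role in the testis, had 6.27 and 2.09 FPKM (3.0-fold lower, 2.14 to 4.27). These 3 genes were further apart than any other member that was lower in KO.

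The other 6 members at least 2-fold lower in KO lay close to the limit, with differences from -1.16 to -1.0. Rps23, a protein of the decoding centre, had 15.1 FPKM in WT and 6.25 in KO, 2.42-fold lower (2.06 to 2.86). Rpl27a had 11.8 and 4.77 FPKM, and Rpl26, which lies at the rim of the exit tunnel, had 33.4 and 14.9. Rpl29 (80.5 and 38.3), Rps16 (22.3 and 10.3) and Rpl23 (14.5 and 6.76) had counting intervals that reach below 2-fold. A further 7 members had FPKM ratios above 2, from 2.02 to 2.16, that the pseudocount brings under the limit (Rpl13a, Rpl14, Rpl22, Rpl37a, Rpl39, Rpl9 and Rps20). Rps6, the substrate of the S6 kinases, had 51.2 and 26.0 FPKM (-0.95).

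In the other direction, 3 members were at least 2-fold higher in KO. Rps12 (chr10:23785183-23787275), a small subunit protein that lies on the beak of the subunit, had 15.4 FPKM in KO and 4.82 in WT, from 843 and 255 reads (3.19-fold, 2.77 to 3.69). Rpl37 (chr15:5116645-5119140), a zinc-binding protein of the large subunit, had 26.6 and 12.0 (2.22-fold, 2.00 to 2.46). Rps28, at the mRNA exit of the small subunit, had 5.14 and 1.57, with no whole reads recovered and so no interval. For 73 measured members with whole reads, the interval lay below 1 for 53, above 1 for 12 and held 1 for 8. Both ends of the interval were past 2-fold for 6 genes lower in KO (Rps21, Rpl38, Rpl39l, Rps23, Rpl27a and Rpl26) and for 2 higher (Rps12 and Rpl37). With a common sum Rpl26 (-0.97), Rps16 (-0.92), Rpl29 (-0.89) and Rpl23 (-0.88) no longer reached the 2-fold limit.

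A further 3 members did not reach an FPKM of 1 in either library. Rpl12, of the stalk base, had 0.865 FPKM in KO and 0.128 in WT, from 84 and 12 reads. Rpl35a had 0.588 and 0.598, and Rps15a had 0.585 and 0.905. All 3 encode core proteins.

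**Figure D2:**
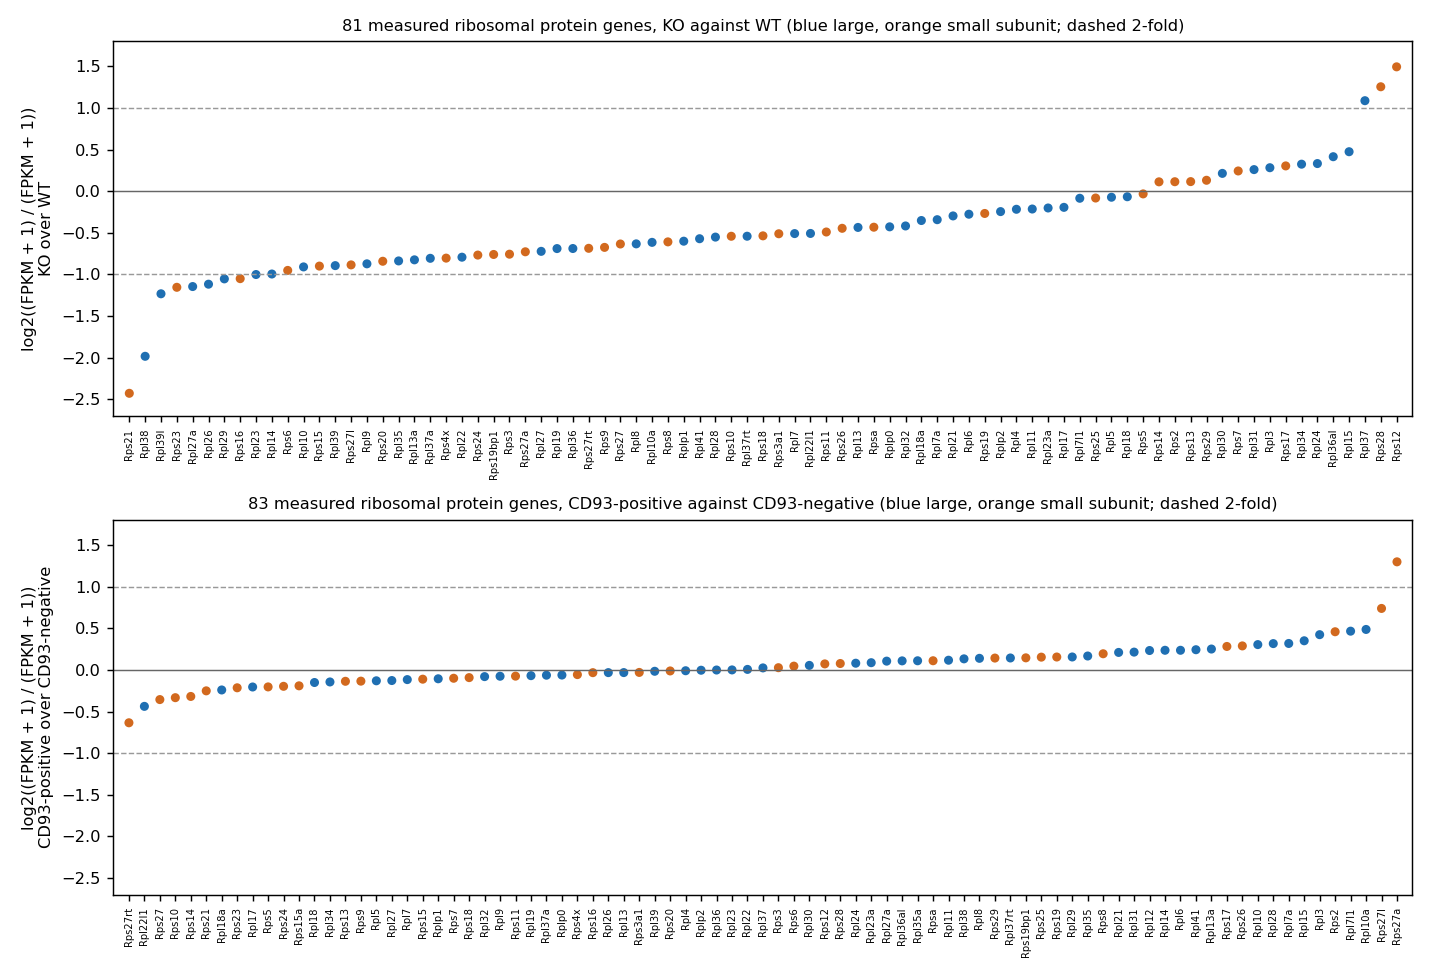
Difference of each measured ribosomal protein gene in rank order, log2((FPKM + 1)/(FPKM + 1)), for KO over WT (top, 81 genes) and CD93-positive over CD93-negative (bottom, 83 genes), blue for the large and orange for the small subunit, with dashed lines at a 2-fold ratio. In the top panel 65 genes lie below 0 and 9 reach the lower line, and in the bottom panel Rps27a alone passes a line.

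Large and small subunit genes had like medians in the knockout pair. The 48 measured large subunit genes had a median of -0.51, with 1 (2.08%) at least 2-fold higher and 6 (12.5%) lower. The 33 small subunit genes had a median of -0.54, with 2 (6.06%) higher and 3 (9.09%) lower. Of all measured genes 16.6% were higher and 12.7% lower by that limit. Over the core proteins alone the medians were -0.51 for 43 measured genes of the large and -0.52 for 30 of the small subunit. The large subunit held 33.0% of the members' FPKM in WT and 34.5% in KO. These shares rest on Rps27rt, which alone held 45.1% and 42.8%, and without it the large subunit held 60.1% and 60.4%. With or without that row, the balance between subunits differed little between the 2 libraries beside the difference in their sums.

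By place in the ribosome, the stalk recruits elongation factors to the large subunit. Its proteins Rplp0 (83.7 FPKM in WT and 62.0 in KO), Rplp1 (128 and 83.8) and Rplp2 (39.0 and 32.7) had differences of -0.43, -0.60 and -0.25. Rpl5 and Rpl11 carry a ribosomal RNA into the large subunit and, when unassembled, bind MDM2 and raise p53. They had 7.93 and 7.49 FPKM (-0.07) and 2.63 and 2.13 (-0.21) in WT and KO. Of the exit tunnel proteins, Rpl4 had 83.8 and 71.9 FPKM (-0.22), Rpl17 had 13.2 and 11.4 (-0.19) and Rpl39 had 7.24 and 3.43 (-0.89). The 5 genes of the exit rim had a median of -0.69.

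In their own rows, the genes of the 5 proteins along the mRNA channel of the small subunit did not share a direction. Rps3 had 94.6 FPKM in WT and 55.6 in KO (-0.76), and Rps26 had 7.85 and 5.49 (-0.45), while Rps2 had 24.1 and 26.1 (0.11). Rps23 and Rps28, given above, lay past the limit in opposite directions. With matched retrocopy rows added (described below), the FPKM sums differed by -0.30 for Rps26, -0.25 for Rps2, -1.01 for Rps23 and -0.54 for Rps28. No row was matched to Rps3, so by these sums all 5 were lower in KO. Among 18 genes mutated in Diamond-Blackfan anaemia, an inherited failure of red cell production, 17 were measured, with a median of -0.21. Of these, 11 were lower in KO, 1 at least 2-fold lower (Rpl26) and 1 higher (Rps28). These are 5.88% each, beside 12.7% lower and 16.6% higher of all measured genes. With a common sum that median was -0.02.

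The highest member levels in WT were Rps27rt (2179 FPKM, and 1354 in KO), Rpl41, a very short peptide at the joint of the subunits (232 and 156), Rpl37rt (181 and 124) and Rplp1. Rps27 itself had 43.1 FPKM in WT and 27.4 in KO. Rps27rt was thus 50.6 times the level of Rps27 in WT and 49.4 times in KO, and both rows were lower in KO by a like amount (-0.69 and -0.63). In reads, Rps27rt (exon length 374 bases) had 21263 in WT and 13671 in KO, and Rps27 (1043 bases) had 1173 and 772. In the CD93 pair, Rps27 was above its copy, with 139 against 54.1 FPKM in CD93+ and 178 against 84.6 in CD93-. Since the coding sequences shown above are the same, the files do not tell which of these loci gave the reads. Rpl37rt likewise had 15.1 times the level of Rpl37 in WT and 4.68 times in KO, while Rpl37 had 3.74 times the level of Rpl37rt in CD93- and 3.42 times in CD93+. Set together, Rpl37 and Rpl37rt had 193 FPKM in WT and 151 in KO, so that the sum was lower in KO although Rpl37 was higher.

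The table of the knockout pair also lists 135 rows of ribosomal protein pseudogenes with a -ps name, where the CD93 table lists 0. Rows with a -ps or Gm name or a pseudogene type were matched by sequence to the transcripts of the 84 genes (at least 90% identity over at least 50% of the row). There were 151 such rows, of which 133 had a -ps name, with a median identity of 98.7%. For 131 of these 133 the best match was the gene in the name. Of the rows, 96 had an identity of at least 98% and 13 one of 100%. They belonged to 61 of the 84 genes, with the most (14) for Rps12. A search of the CD93 table found 1 matched row, for Rpl35. Rows whose names GENCODE M21 lacks or repeats could not be searched, so copies among them were not looked for. The 84 members were not searched as copies of each other.

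Matched retrocopy rows held more FPKM than the gene rows. Their summed FPKM was 13502 in WT and 8900.5 in KO, against 4829 and 3160.1 for the genes. In each library 53 of the 61 genes had more FPKM in their copies than in their own row, and 35 had over 10 times more in WT. Both counts are of FPKM, which is per length, and were not repeated in reads. Rpl35 had 12.4 FPKM in WT while its matched row Gm10269, 98.9% identical, had 674. Rps16 had 22.3 while Rps16-ps2, 100% identical, had 601, and Rps6 had 51.2 while Rps6-ps4, also 100% identical, had 686. Rps25-ps1 had 815 FPKM beside 30.7 for Rps25. Counted in reads, the gaps for Rps16, Rps6 and Rps25 were smaller. In WT, Rps16 had 738 reads and Rps16-ps2 6919, Rps6 2119 and Rps6-ps4 13419, and Rps25 2156 and Rps25-ps1 8033. For Rps15a and Rpl35a, whose own rows lay below 1, the copies summed to 300 and 187 FPKM in WT. Genes and copies together made up 3.19% of the summed FPKM in WT and 2.36% in KO.

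**Figure D3:**
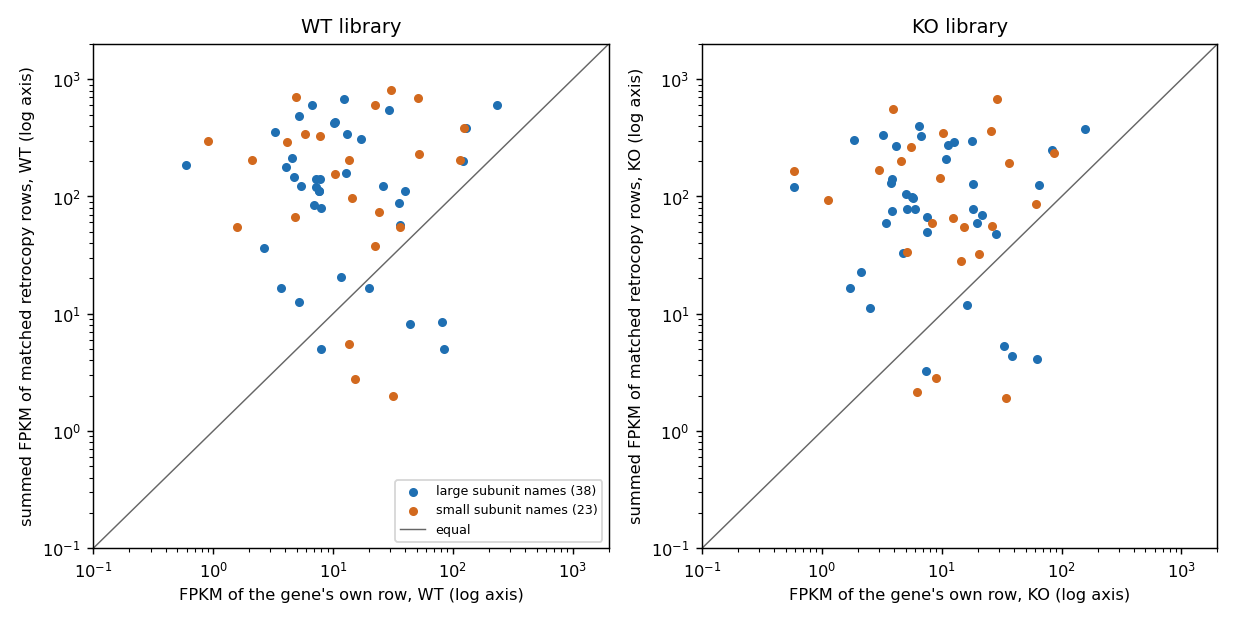
Summed FPKM of the matched retrocopy rows against the FPKM of the gene's own row, on log axes, in the WT (left) and KO (right) library, for the 61 genes with a matched row, blue for the large and orange for the small subunit. In each library 53 of the 61 genes lie above the line of equality.

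Retrocopy rows were also lower in KO. Of 137 measured rows, 128 were lower, with a median of -0.44. Of these rows 8 (5.84%) were at least 2-fold lower and 2 (1.46%) higher, beside 12.7% and 16.6% of all measured genes. The sums of the genes and of the copies had nearly the same ratio, 1.53-fold and 1.52-fold higher in WT. The gene sum includes Rps27rt, itself a retrocopy. Without the near copies and Rps19bp1 the gene ratio was 1.46-fold. With a common sum the median of the copies was -0.28 (149 rows measured). Summed per gene, the copies were closer to each other than the gene rows. Across the 59 genes with a measured row and copies, the standard deviation of the difference was 0.57 for gene rows and 0.33 for the summed copies. A sum joins up to 14 rows, and the 137 measured copy rows taken singly had one of 0.45. The 2 differences had a Pearson correlation of 0.08 and a Spearman correlation of 0.21 across these genes, which are not independent and share both libraries.

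Several gene rows at the ends of the ranking lay nearer to the others once the FPKM of their copies was added. FPKM is per length, so a short row adds more to such a sum than a long one with the same reads. Of the 12 genes with copies whose own row was higher in KO, all 12 had summed copies that were lower, from -1.22 to -0.03. Rps12, 3.19-fold higher in its own row, had copies at 66.2 FPKM in WT and 54.7 in KO. The FPKM sum of gene and copies differed by -0.02. In reads its own row had 255 in WT and 843 in KO, and its highest copy, Rps12-ps3, 451 and 310. Added as reads, gene and copies were higher in KO. Rps28 had 1 copy, Gm3511, with 55.1 and 33.4 FPKM, and a summed difference of -0.54. Rpl38, 5.56-fold lower in its own row, had a copy with 100% identity, Rpl38-ps2, at 421 and 299, and a summed difference of -0.52. Rpl27a was the 1 gene with copies that were higher in KO (20.5 FPKM in WT and 33.2 in KO), and its FPKM sum differed by 0.23. In reads, its own row had 851 in WT and 357 in KO, and its copy Gm5453 had 239 and 401. Added as reads, gene and copy were higher in WT, so the direction of this sum depends on the weighting by length. For Rps21 no copy was matched among the rows searched, and its difference of -2.43 was the lowest also among the sums.

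**Figure D4:**
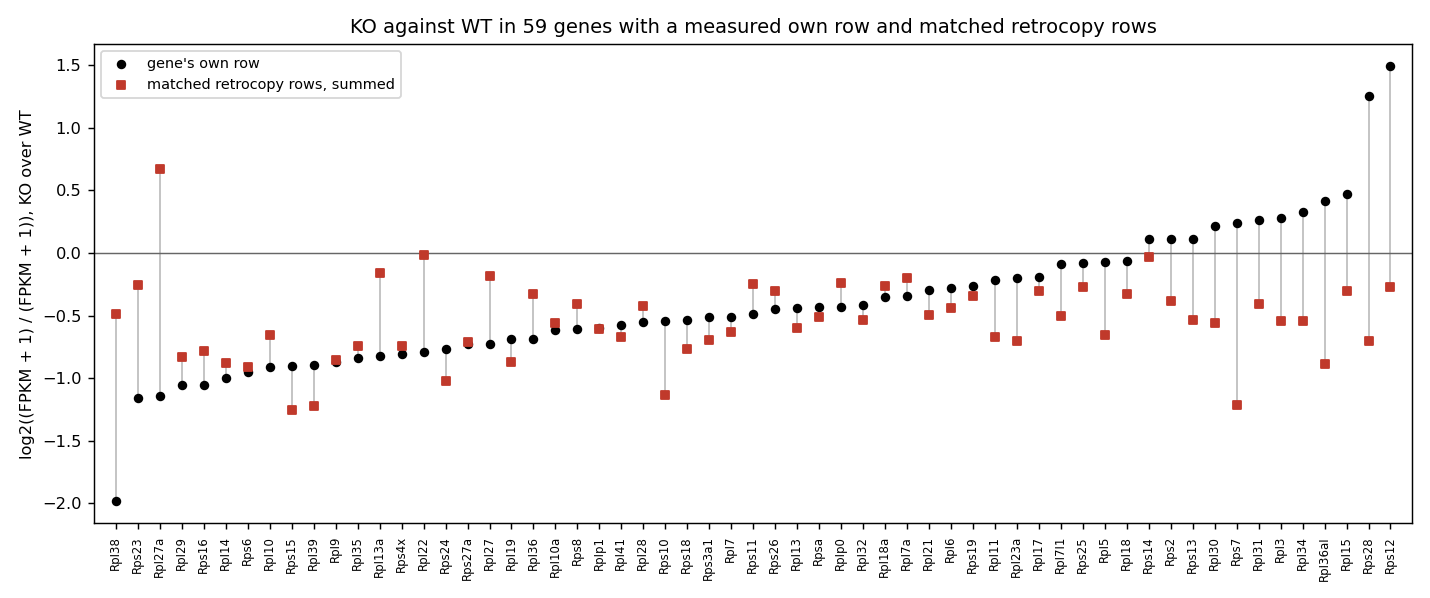
Difference between KO and WT, log2((FPKM + 1)/(FPKM + 1)), for the gene's own row (black circles) and its summed retrocopy rows (red squares), in 59 genes ordered by the own row. The circles run from -1.98 (Rpl38) to 1.49 (Rps12), while 58 of the 59 squares lie below 0.

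Summed in FPKM per gene with its copies, 83 genes were measured, with a median of -0.56 and a standard deviation of 0.44, against 0.61 for gene rows. Of these sums 77 were lower in KO, 11 at least 2-fold lower and 1 higher (Rpl37, to which no row was matched beside the member Rpl37rt). Across the whole table, with measured rows taken singly, 12.7% passed this limit on the lower side and 16.6% on the higher side. The 11 of 83 sums are thus near the table-wide share for lower levels, and the 1 higher sum is below that for higher levels. The large subunit had a median of -0.53 and the small subunit one of -0.66. New among the lower sums were Rpl39 (147 FPKM in WT and 63.0 in KO), Rps10 (209 and 94.6), Rps15 (321 and 147), Rps7 (164 and 78.2) and Rps24 (346 and 170.1). The 22 measured genes without a matched copy had a median of -0.65, with 18 lower in KO, and the 59 with copies one of -0.49. These 22 include the retrocopies Rps27rt and Rpl37rt, and also Rps27 and Rpl37, whose copies were counted as members. The large subunit held 50.4% of the summed FPKM of genes and copies in WT and 51.1% in KO.

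Sets of related genes outside the cytosolic ribosome had medians nearer to 0 than the members, and whether they differ from the members was not tested. Lower in KO were 49 of 78 mitochondrial ribosomal protein genes, 60 of 81 respiratory chain genes and 17 of 24 elongation and TOP-type genes. Among the members 65 of 81 were lower, and among all measured genes 49.5%. The 78 measured mitochondrial ribosomal protein genes, whose products form a separate ribosome, had a median of -0.15, with 4 (5.13%) at least 2-fold higher and 7 (8.97%) lower. That median was 0.03 with a common sum. By the 2-fold limit, 16.6% of all measured genes were higher and 12.7% lower. The 81 genes of the respiratory chain and ATP synthase had a median of -0.24, with 0 higher and 4 (4.94%) lower by that limit. Elongation factors and other mRNAs with a TOP tract (24 genes) had one of -0.16, with Eif3l at 10.1 FPKM in WT and 26.6 in KO and Eef1a1, the main elongation factor, at 502 and 402. Initiation and termination factors (35 genes) had one of -0.03 (0.14 with a common sum), with 1 (2.86%) at least 2-fold lower, Eif3j1 (8.92 and 3.42).

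Factors that build ribosomes were spread in both directions. Of 53 measured, 9 (17%) were at least 2-fold higher and 6 (11.3%) lower in KO, shares near the 16.6% and 12.7% of all genes, with a median of 0.11. The pre-ribosomal factors Bop1 (3.64 FPKM in WT and 0.175 in KO), Imp3 (24.2 and 6.09) and Nob1 (2.99 and 0.266) were lower, and Rcl1 (1.25 and 6.31) was higher. Of 27 genes of RNA polymerases I and III, which make ribosomal RNA and transfer RNA, 7 (25.9%) were higher and 2 (7.41%) lower. Taf1b had 1.96 and 14.2 FPKM and Polr3c 5.63 and 19.6. Of 25 genes of mTORC1, the S6 kinases and the MYC network, 4 were higher and 4 lower (16% each), also near the shares of all genes. Mxi1, which opposes MYC, had 7.80 and 0.323 FPKM, the kinase gene Rps6ka1 had 8.66 and 0.931, and Max, the partner of MYC, had 0.607 and 6.45. Of 16 genes of ribosome rescue, 2 (12.5%) were higher, the kinase gene Eif2ak4 (0.298 and 3.13) and Usp10 (0.501 and 2.51). The 7 snoRNA host genes, whose transcripts carry TOP tracts, had a median of -0.32, and Gas5 had 42.0 and 32.1.

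Ribosomal protein genes with other names, and the ubiquitin fusion among the members, were read in the same way. Fau, whose product is a ubiquitin-like protein fused to a small subunit protein, had 18.6 FPKM in WT and 22.6 in KO. Gnb2l1, which encodes RACK1 on the small subunit, had 61.8 and 54.9. Rps27a, a fusion of ubiquitin and a small subunit protein, had 14.3 and 8.26 (1.74-fold lower, 1.54 to 1.96).

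**Figure D5:**
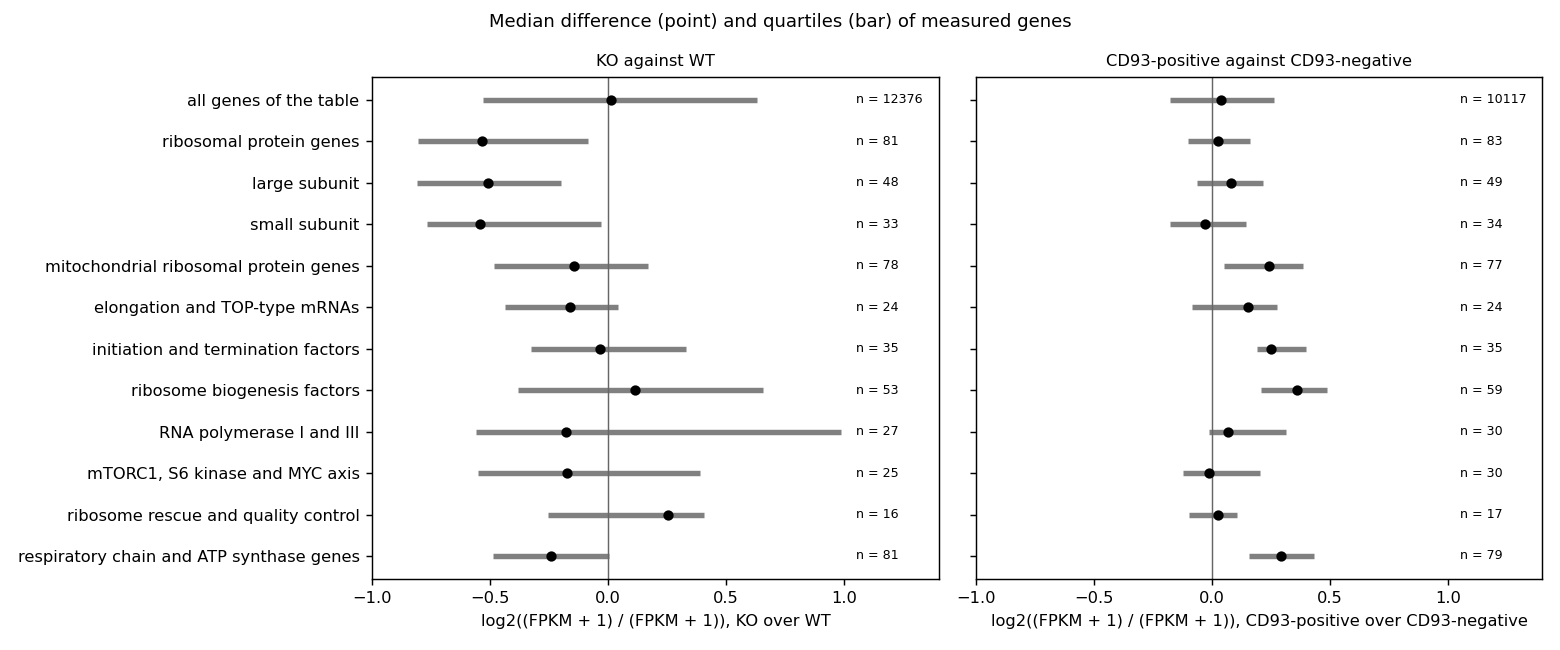
Median (point) and quartiles (bar) of the difference, log2((FPKM + 1)/(FPKM + 1)), over the measured genes of each set, for KO over WT (left) and CD93-positive over CD93-negative (right), with the number of genes. On the left the ribosomal protein genes have the lowest medians of the sets plotted, and on the right they lie near the median of all genes while initiation factors (0.25), biogenesis factors (0.36) and respiratory chain genes (0.29) lie above it.

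In the CD93 pair, ribosomal protein genes had nearly the same level in both libraries. Of 83 measured members, 43 were higher and 40 lower in CD93+, with a median of 0.02 (quartiles -0.10 and 0.16) beside 0.04 for all 10117 measured genes. At the 2-fold limit, 1 member was higher (1.20%, against 2.49% of all measured genes) and 0 lower (against 1.94%). All but 3 of the 83 (Rps27a, Rps27l and Rps27rt) were within 1.5-fold on the log2 scale with its pseudocount, and as a ratio of FPKM Rps10 was also outside (1.58-fold). With a common sum the median of all genes moved to -0.15 and that of the members to -0.15, with 64 of 84 lower in CD93+, and with a median ratio of 1 it was -0.02. Relative to all genes the members thus stayed within 0.03 of the median under each of these scalings. Measured members had from 22 to 9969 reads, and 3 had under 100 in a library (Rpl24, Rpl36al and Rps10). For 31 of the 83 the counting interval of the ratio held 1, for 29 it lay above and for 23 below. The 6 exocrine pancreas genes listed, none at 0, summed to 137 FPKM in CD93+ and 204 in CD93-, and 9 ILC3 genes to 9252 and 2530.3. Il22 alone held 7934 and 1655 FPKM of that, and the other 8 ILC3 genes summed to 1318 and 875, with 5 of them higher in CD93+ and Kit (132 and 144), Ahr (5.76 and 10.02) and Il7r (85.7 and 86.8) lower. Their part in the result was not tested.

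Rps27a was the member past the limit. It encodes ubiquitin fused to a small subunit protein, which proteases cut apart. Its gene (ENSMUSG00000020460.15, chr11:29545846-29548109, minus strand) had 87.6 FPKM in CD93+ and 35.0 in CD93-, from 2023 and 814 reads, 2.50-fold higher (2.31 to 2.72). With a common sum its difference was 1.14. The polyubiquitin gene Ubb had 608 and 651 FPKM (0.934-fold, 0.911 to 0.958).

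The next members by size were a near copy of Rps27 and its retrocopy, in opposite directions. Rps27l had 53.0 FPKM in CD93+ and 31.4 in CD93- (1.69-fold, 1.46 to 1.96). Rps27rt had 54.1 and 84.6 (1.56-fold lower in CD93+, 1.33 to 1.85), and Rps27 had 139 and 178 (1.28-fold lower, 1.20 to 1.37). The coding sequence of Rps27l differs from the other 2 at 61 positions (shown above). Rpl22l1, the copy of Rpl22 known for a role in T cell development, had 8.93 and 12.5 (1.39-fold lower, 1.16 to 1.67), while Rpl22 had 37.6 and 37.4.

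Above 0 after Rps27a and Rps27l came Rpl10a (80.5 FPKM in CD93+ and 57.2 in CD93-, 1.41-fold), Rpl7l1 (24.9 and 17.8, 1.4-fold), Rps2 (209 and 152, 1.38-fold) and Rpl3 (115 and 85.7, 1.35-fold). Rpl3 lines the site of peptide bond formation, and Rpl7l1 acts in the assembly of the large subunit. At the other end, Rps14, a core protein of the platform, had 147 and 184 FPKM (-0.32), and Rps21 had 83.5 and 99.6 (-0.25). Rps10 had 0.813 and 1.28, from only 22 and 35 reads, and its interval held 1. Rps21, Rpl38, Rps12 and Rpl37, all past 2-fold in the knockout pair, had differences of -0.25, 0.13, 0.07 and 0.02 here. Across the 80 members measured in both pairs, the 2 differences had a Pearson correlation of 0.08 and a Spearman correlation of 0.07.

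By level, Rplp1 (679 FPKM in CD93+ and 731 in CD93-), Rplp0 (488 and 510), Rpl10 (403 and 326), Rps3a1 (368 and 376) and Rps15 (300 and 324) were highest in this pair. The lowest were Rpl39l (0.719 and 0.714), Rps10, Rpl24 (2.32 and 2.14), Rpl36al (4.61 and 4.20) and Rpl13a (6.82 and 5.58). Rpl24, Rpl13a and Rps10 encode core proteins, and the median member had 95.8 and 86.2 FPKM. Both libraries placed the same genes high and low, as the plot of levels shows.

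By place, the stalk genes Rplp0, Rplp1 and Rplp2 had differences of -0.06, -0.11 and 0.00 in CD93+ over CD93-, and Rpl12 (42.6 and 36.1 FPKM) one of 0.23. Rpl5 (67.5 and 74.0) and Rpl11 (81.4 and 75.03) had -0.13 and 0.12. The tunnel genes Rpl4, Rpl17 and Rpl39 had -0.01, -0.21 and -0.02. Of the mRNA channel, Rps2 had 0.46, Rps26 0.29, Rps28 0.08, Rps3 0.03 and Rps23 -0.21. The 49 measured large subunit genes had a median of 0.08 and the 34 small subunit genes one of -0.03, a gap of 0.11 that has no test. The large subunit held 61.7% of the members' FPKM in CD93+ and 60.9% in CD93-.

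Several sets of related genes were higher in CD93+ where the ribosomal protein genes were not. Of 35 initiation and termination factors, 34 were higher, with a median of 0.25, led by Eif5a (237 FPKM in CD93+ and 143 in CD93-) and Eif4a1, the helicase that opens mRNA leaders (104 and 69.7). With a common sum 27 of the 35 were higher (median 0.09). Of 59 measured ribosome biogenesis factors, 52 were higher, with a median of 0.36 (0.21 with a common sum), among them Bysl (7.02 and 3.28) and Dkc1, which modifies ribosomal RNA (9.43 and 4.75). Riok1 (12.2 and 19.8) was lower. Of 77 mitochondrial ribosomal protein genes 61 were higher (median 0.24, and 0.08 with a common sum), and of 79 respiratory chain genes 75 (median 0.29, and 0.14 with a common sum). None of these 4 sets had a member past 2-fold on the log2 scale with its pseudocount, though the biogenesis factor Bysl had an FPKM ratio of 2.14. Of all measured genes in this pair 54.4% were higher in CD93+.

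Other related sets lay nearer to 0 in this pair. Elongation factors and TOP-type mRNAs (24 genes) had a median of 0.15, which was -0.02 with a common sum, with Eef1a1 at 1649 FPKM in CD93+ and 1398 in CD93- and Tpt1 at 678 and 788. Genes of RNA polymerases I and III had a median of 0.07, with Polr3d at 9.39 and 4.78 and the polymerase III repressor Maf1 at 50.8 and 71.6. The mTORC1, S6 kinase and MYC genes had one of -0.01, with Mxi1 at 6.13 and 11.3 and Eif4ebp1, which restrains initiation at the mRNA cap, at 10.1 and 6.76. In ribosome rescue the median was 0.02, and Edf1, which senses collided ribosomes, had 138 and 81.4.

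The start-site run did not mark a subset with other differences in either pair. In the knockout pair the 22 measured genes with a run of at least 8 pyrimidines at the start had a median of -0.59 and the 39 with a shorter run or none one of -0.54. In the CD93 pair the medians were 0.02 for 24 genes and 0.02 for 39. Rps6, Rps18 and Rpl35, with runs of 10, 11 and 18 bases in the windows shown above, had differences of -0.95, -0.54 and -0.84 in KO over WT. Rps10 and Rps12, with runs of 13 and 11 bases in windows that are not shown, had -0.54 and 1.49. Rps21, with a run of 7 bases, had -2.43. In the knockout pair the difference had a Pearson correlation of 0.27 with the log2 exon length of the member (81 genes, Spearman 0.28) and of -0.16 with its mean level, and in the CD93 pair these were 0.09 and -0.06. Members are short, with a median exon length of 1754.5 bases against 3879 for all measured genes of the knockout pair.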

How the data were processed

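The authors computed and deposited FPKM per gene, 1 table per library and 1 joint table per pair, and the joint tables were used. Bowtie2, featureCounts (Subread), edgeR, DESeq2 and build mm10 are named in the submitters' processing notes. The annotation, and the order, settings and versions of these tools, were not given in the sources used here. FPKM was multiplied by its gene's union exon length (GENCODE M21). Among values above 0 with such a length, 92.1% of KO, 91.9% of WT, 98.1% of CD93+ and 98.2% of CD93- gave whole reads (within 0.02). In the knockout pair only 10243 KO and 10319 WT values, of 15242 rows, were above 0 with a length. Whole reads were found for 76 of the 84 members in the knockout pair and all 84 in the CD93 pair. These reads gave the counting intervals. With 1 library per group no count model was run. On simulated libraries of each pair (11072 and 12399 genes, 200 of them changed 4-fold), all reads were recovered and 95.0% and 93.5% of intervals held the simulated fold. The same lengths made and recovered the simulated FPKM, so the simulation cannot check recovery where the authors' lengths differ. The changed genes were drawn from those with over 200 expected reads, so intervals of genes with fewer were not checked. Differences used a pseudocount of 1, a minimum FPKM of 1 in either library and a 2-fold limit. Retrocopy rows were matched with blastn 2.17.0. Tables were read with Python 3.11.15 and pandas 2.3.3. Genes were named if at least 2-fold apart, among the 6 highest or lowest differences or the 5 highest or lowest levels of a pair, or in fixed groups by role, with up to 4 per other list. Others named with their matched row or sum (such as Rpl35, Rps18, Rps25, Rps24, Rps7 and Rpl14) were chosen after their values were seen. The members and lists were chosen with earlier results of these data known.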

Additional observations from a re-analysis of the deposited data

How the results depend on the processing

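In the knockout pair the median difference of the members was negative under every alternative run, from -0.36 with a common sum to -0.56 with retrocopy rows added to their genes (chosen after seeing the data); it was -0.41 with a pseudocount of 5, and -0.38 with a common sum taken without ribosomal protein and mitochondrial genes. The count of members at least 2-fold lower, 9 as reported, was 15 with a pseudocount of 0.1, 2 with a pseudocount of 5, 5 with either common sum and 36 at a 1.5-fold limit. Of all 12376 measured genes, 2029 were lower with a pseudocount of 0.1, 322 with one of 5 and 2838 at a 1.5-fold limit. The count of members at least 2-fold higher, 3 as reported, was 1 with a pseudocount of 5 and 1 with retrocopy rows added, which also moved the gap between large and small subunit medians from 0.03 to 0.13. In the CD93 pair the median was -0.15 with either common sum, and at a 1.5-fold limit 2 members were higher and 1 lower. Of all 10117 measured genes of that pair, 771 were higher and 700 lower at that limit. The members' share of the total depends on what is summed. Without mitochondrial genes it was 0.654% in KO, 0.894% in WT, 3.98% in CD93+ and 4.41% in CD93-. Over annotated names it was 0.951% in KO and 1.34% in WT, and as a share of recovered reads 0.419%, 0.572%, 1.69% and 1.75% in the same order. In each setting it was lower in KO than in WT and in CD93+ than in CD93-. The cause of these shifts was not tested, apart from the limits and denominators, which change them by construction. All other alternatives run for these results, without Rps27rt and Rpl37rt (chosen after seeing the data), without near copies, with whole reads only, with a median ratio of 1, without a filter and with an FPKM of at least 5, stayed within 0.1 or 1.5 times the reported value. No paired analysis was possible because each group has 1 library. Members with under 100 reads in a library, such as Rpl38, Rpl12 and Rps10, have wide counting intervals, and the spread between animals is unknown for all.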
